A study of Saccharomyces cerevisiae with 4 samples.

Results

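The ribosomal DNA of budding yeast was examined for capped and polyadenylated RNA in cells that lack RRP6. The members are all isoforms, meaning distinct pairs of a start and an end position on a strand, whose both ends lie at chromosome XII, 451000 to 469500 of R64, the stretch that carries the annotated ribosomal DNA repeats. They number 179 isoforms with 357 reads, out of 425462 isoforms with 1833796 reads in the whole table. Each of the 179 lay inside a single annotated spacer, NTS1-2 (459797 to 460711), which makes up 4.95% of that stretch.

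The libraries came from FSY3636, a MATa strain of S288c background in which kanMX4 replaced RRP6, so that all of them carry the deletion. Cells were grown in YPAD, a rich glucose medium, and taken in mid-log phase. In TIF-Seq, complementary DNA of whole capped and polyadenylated molecules is closed into a circle and the joined ends are sequenced, which gives both ends of the same molecule. The 4 libraries, 2 preparations from each of 2 cultures, stand in the deposited table as 1 pooled count, and wild-type cells were not analysed here. No value has a replicate error for that reason, nothing was tested between samples, and each interval reflects counting error alone. The deleted gene, RRP6, had 0 reads on its strand.

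The ribosomal DNA of yeast is a long tandem array. In each unit, RNA polymerase I transcribes the 35S precursor of the 18S, 5.8S and 25S RNAs (RDN37), and RNA polymerase III transcribes the 5S RNA (RDN5) from the opposite strand. Ribosomal RNAs carry no cap, so the assay is not made for them. The spacers between the genes are called nontranscribed. NTS1 lies between RDN5 and the 3′ end of RDN37 and is known to hold the replication fork block bound by Fob1 and a bidirectional RNA polymerase II promoter, E-pro, which is repressed by the silencing protein Sir2. RNAs made from the spacers are known substrates of the TRAMP polyadenylation complex and of the nuclear exosome, of which Rrp6 is a 3′ to 5′ exonuclease. The table carries no copy number, so reads from every unit of the array that carries the same spacer fall on this 1 annotated spacer and no level per unit can be given.

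The sequence that carries the finding is the start zone of the spacer RNA, shown with the 3 start bases used most and an upstream TATATA in capitals. It and the sequences below are the RefSeq reference of R64, read 5′ to 3′.

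chr12:460253-460383, plus strand: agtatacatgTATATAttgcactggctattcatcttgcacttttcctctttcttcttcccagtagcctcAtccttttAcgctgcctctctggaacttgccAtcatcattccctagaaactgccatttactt

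The end zone follows, from 10 bases before the first of the 8 most used ends to 10 bases past the last plus-strand end, with the last base of those 8 ends in capitals.

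chr12:460506-460632, plus strand: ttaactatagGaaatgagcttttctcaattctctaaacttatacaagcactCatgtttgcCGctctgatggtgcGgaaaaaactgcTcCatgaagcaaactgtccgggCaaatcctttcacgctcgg

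The molecules ran on the plus strand, the strand of RDN5 and the opposite of RDN37. Of the 357 reads, 356 on 178 isoforms were on the plus strand (99.7%, 95% Wilson interval 98.4 to 99.95) and 1 was on the minus strand. The window as a whole reached 195 CPM, counts scaled to the total of the table (95% Poisson interval 175 to 216). The first plus-strand start lay 78 bases past RDN5-1 and the last plus-strand end 90 bases before RDN37-2. Both neighbours of the spacer were therefore free of overlapping reads.

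**Figure D1:**
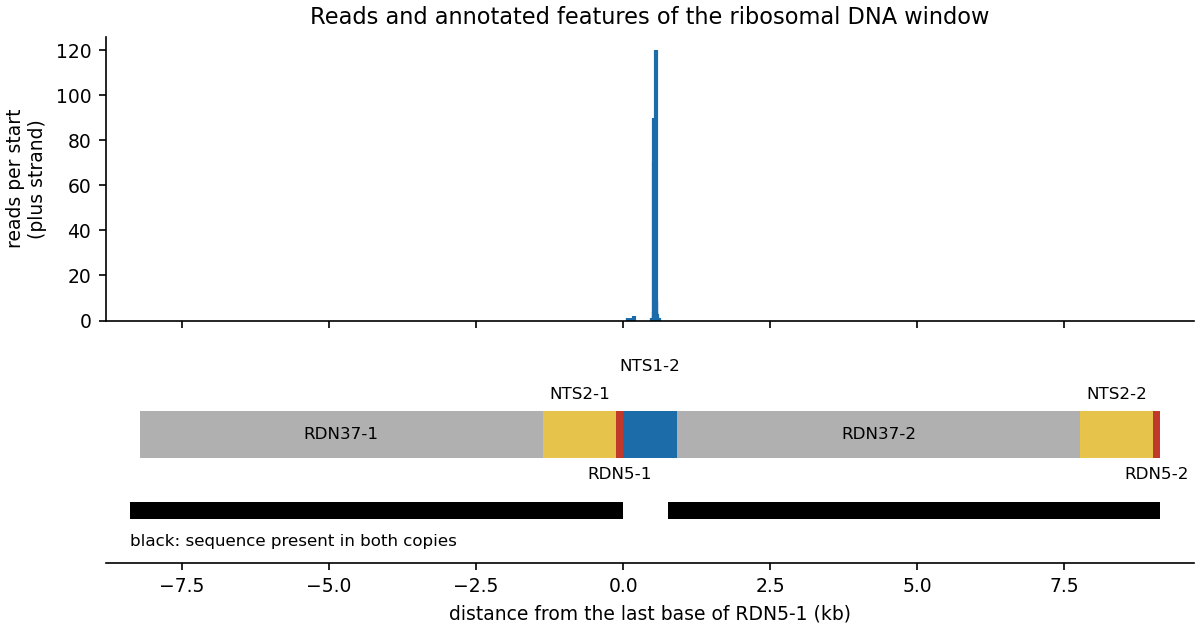
Reads per plus-strand start position (top, vertical axis) along the ribosomal DNA window, with distance from the last base of RDN5-1 in kb on the horizontal axis and the annotated genes and spacers below. All reads fall in NTS1-2, and the black bars mark the sequence that both annotated copies share.

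Of the 27 annotated features that overlap the window, 26 had 0 overlapping reads on either strand. These were both copies of RDN37 with their parts (ETS1, RDN18, ITS1, RDN58, ITS2, RDN25, ETS2), both copies of NTS2 with the replication origins ARS1200-1 and ARS1200-2, both RDN5 genes, and the protein-coding genes TAR1, YLR154C-G, YLR154C-H and ASP3-1. TAR1 encodes a mitochondrial protein from the strand opposite to the 25S gene, and ASP3-1 an asparaginase. Counting error alone lets a 0 stand for as many as 3 reads as a one-sided limit (1.64 CPM), and for 2.01 CPM as the upper bound of the two-sided Poisson interval used for levels. Most of these zeros cannot be read as absence, because the 2 annotated units are copies of each other. The stretch from 451418 to 459792 recurs without a mismatch 9137 bases further on, and 93.6% of all 30-base words of the window occur more than once in the genome, against 6.47% over the nuclear chromosomes.

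Isoforms with both ends in such repeated sequence were nearly missing from the whole table. When the 30 bases inward from the start and from the end were looked up, 5 of the 425462 isoforms had both in more than 1 place, and with 50 bases 1 isoform did. RNA of RDN37, NTS2 or RDN5 with both ends in copied sequence can thus be missed here whatever its level. NTS1 is the part of the unit that the reference holds once, apart from its last 157 bases (460555 to 460711), which recur at 451418 to 451574. All 179 members began in sequence that occurs once. Of the plus-strand reads, 273 ended in the last 157 bases, and for 122 reads the 30 bases before the end occur elsewhere, yet all were listed on this copy and 0 at the other.

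Starts were concentrated in 3 positions within 32 bases. The leading start, at 460353, lay 557 bases past RDN5-1 and 359 bases before RDN37-2, and positions below are distances from it. It held 120 reads on 36 isoforms (33.6% of the 357, 28.9 to 38.7). The start at −23 held 90 reads on 40 isoforms (25.2%, 21.0 to 29.96), and the start at −31 held 71 reads on 38 isoforms (19.9%, 16.1 to 24.3). Together they held 281 reads (78.7%, 74.2 to 82.6), while no other start exceeded 9 reads and 18 of the 34 plus-strand starts had 1 read.

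The bases around these starts are shown to compare them, with the first base of the RNA in capitals.
Start at −31, chr12:460307-460337: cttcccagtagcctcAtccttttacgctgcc
Start at −23, chr12:460315-460345: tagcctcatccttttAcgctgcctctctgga
Start at 0, chr12:460338-460368: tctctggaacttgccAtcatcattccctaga
Each of the 3 RNAs begins with an A that follows a pyrimidine, the step at which yeast RNA polymerase II commonly starts. Over all members, 88.8% of reads (85.1 to 91.7) began at a pyrimidine-purine step, against 80.9% (80.6 to 81.1) in unannotated RNA elsewhere, meaning isoforms that touch no ORF and no annotated noncoding gene on their strand. Reads at 1 start share that base, so the 3 leading starts set most of this share. The TATATA shown above ends 54 bases before the start at −31 and 85 bases before the leading start. It was the only TATATA in the 250 bases before the leading start. The word reads the same on both strands, and 29.4% of 820 other unannotated start clusters (starts within 10 bases of each other, at least 20 reads) had it in the same 250 bases, as did 27.2% of all 4586.

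Merged within 10 bases, the starts from −37 to 21 formed a cluster of 341 reads on 164 isoforms (95.5% of the reads, 92.8 to 97.2). Its level was 186 CPM (167 to 207), which ranked 8 among 821 unannotated start clusters of at least 20 reads in the table. It ranked 604 among all 4587 such clusters. Reads from every unit of the array that carries this spacer add up in the level, so neither rank describes a single unit.

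**Figure D2:**
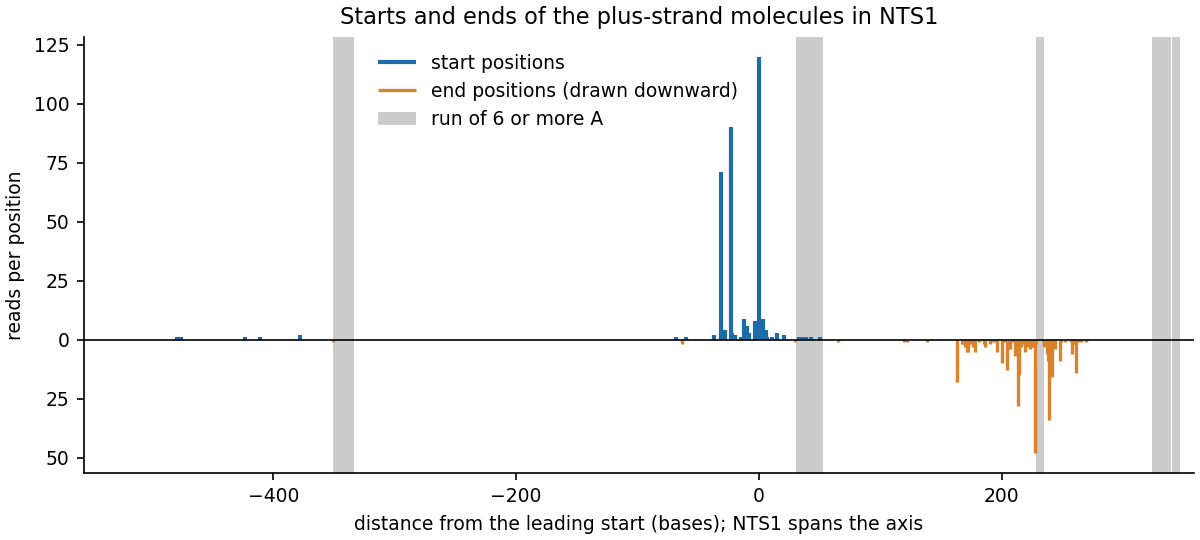
Reads per start position (upward) and per end position (downward) of the plus-strand molecules across NTS1, by distance in bases from the leading start, with runs of 6 or more A in grey. The 3 leading starts hold 71, 90 and 120 reads, and the ends spread over about 100 bases. The longest A run, inside the molecules, has 1 read that ends in it or within 3 bases before it.

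The few other starts lay apart. Far upstream, from −479 to −378, 5 isoforms with 6 reads began, of which 3 reads ended before the leading start. Of the 6 reads, 1 ended at −351, directly before a run of 17 A, and 1 at 30, directly before a run of 22 A. Only 2 reads began between that zone and the leading cluster. A further 7 reads with 7 different starts began inside the run of 22 A, and 5 of these 7 shared the end at 239.

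The single minus-strand molecule began at 460257 and ended at 460032, with a length of 226 bases. Its start lay 65 bases upstream of the start at −31 and pointed away from it. With 1 read against 356, the minus strand made up 0.280% of the reads (0.0495 to 1.57). An RNA that ran on into RDN5-1 and NTS2 would end in repeated sequence, although its start in NTS1 would not. Such RNA can be missed in part, so the share of the minus strand is that of recorded molecules only.

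The recorded molecules were short. Their median length was 232 bases per read (quartiles 214 and 252), with extremes of 129 and 542 bases. Unannotated RNA elsewhere had a median of 379 bases (279 and 539), noncoding genes 357 bases (277 and 522) and isoforms that touch an ORF 860 bases (618 and 1108). Longer molecules that end further into the copied part of NTS1 could be missed. The share of this in the short median was not tested. The leading isoform, from 0 to 227, was 228 bases long, with 36 reads (10.1% of the 357, 7.37 to 13.6). The second, from 0 to 239, had 14 reads, and the third, from −23 to 213, had 10. Isoforms of 1 read made up 64.8% of the 179 (57.6 to 71.4), against 72.2% elsewhere (72.0 to 72.3). The longest reading frame from an ATG to a stop in the leading isoform was 34 codons.

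Ends were spread where starts were not. Plus-strand reads used 70 end positions against 34 starts, and the ends from 163 to 269 held 348 reads (97.5%, 95.3 to 98.7). For the leading start cluster, the central 90% of ends ran from 163 to 260, a span of 98 bases, with a median of 225. The median end thus stood 134 bases before RDN37-2, the annotated 3′ end of the 35S gene on the other strand. The leading end, at 227, had 48 reads from 6 starts (13.4%, 10.3 to 17.4). The end at 239 had 34 reads, that at 213 had 28 and that at 163 had 18. Together the 8 most used ends held 186 reads, or 52.1% (46.9 to 57.2).

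The 4 most used ends are shown with their last base in capitals.
End at 163, chr12:460501-460531: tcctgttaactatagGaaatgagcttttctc
End at 213, chr12:460551-460581: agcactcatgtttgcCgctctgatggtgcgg
End at 227, chr12:460565-460595: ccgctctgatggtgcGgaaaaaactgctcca
End at 239, chr12:460577-460607: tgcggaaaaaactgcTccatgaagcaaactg
Of these 4, the end at 163 alone is followed by an A in the genome, while 4 of the 8 most used ends are. Over the window, 32.5% of reads (27.8 to 37.5) had an A as the next genomic base, and 36.1% (31.1 to 41.5) without the leading isoform. The share was 57.6% (57.2 to 57.9) in unannotated RNA, 52.2% (51.9 to 52.6) in noncoding genes and 79.5% (79.4 to 79.6) in isoforms that touch an ORF. Counting each plus-strand end position once, 21 of 70 were followed by A (30%, 20.5 to 41.5), against 50.9% (50.5 to 51.4) of unannotated, 35.7% (34.8 to 36.7) of noncoding gene and 56.0% (55.7 to 56.3) of ORF end positions elsewhere. The interval of the spacer lay below those of unannotated and ORF ends and included that of noncoding genes.

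A-rich sequence inside an RNA can prime the complementary DNA in place of a poly(A) tail. With at least 6 A in the next 10 bases as the criterion, 74 of the 357 reads (20.7%, 16.8 to 25.2) ended before such sequence, against 15.2% (14.97 to 15.4) in unannotated RNA, 12.4% (12.2 to 12.6) in noncoding genes and 20.8% (20.7 to 20.9) in isoforms that touch an ORF. The leading end accounts for most of the 74, since a G and 6 A follow it, and without the leading isoform the share was 11.8%. With at least 7 A in the next 10 bases the share in the window was 0.560%. The run of 22 A lies inside the molecules, from 31 to 52. It was passed by 345 reads that began before it and ended after it, and 1 read ended in the run or within 3 bases before it. The part of such priming in the leading end was not tested.

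Molecules from the 3 leading starts had like far limits. Ends further into the copied part of NTS1 could be missed from each of these starts, and the share of this in the far limits was not tested. The upper quartile of ends was 238 for the start at −31, 239 for that at −23 and 239 for that at 0. Their median ends were 213, 214 and 227, so molecules from the first 2 were longer, with median lengths of 245, 238 and 228 bases. The end at 227 took 36 of 120 reads from the leading start (30%, 22.5 to 38.7), 6 of 90 from −23 (6.67%, 3.09 to 13.8) and 3 of 71 from −31 (4.23%, 1.45 to 11.7). Ends more than 30 bases before 227 made up 10% (5.81 to 16.7), 20% (13.0 to 29.4) and 31.0% (21.4 to 42.5) of the reads of the starts at 0, −23 and −31. The 36 reads at 227 from the leading start are the leading isoform. Without it the leading start kept 84 reads, with a median end of 228 and 14.3% (8.37 to 23.3) of early ends. Over the 164 isoforms of the leading cluster, Spearman's correlation of start with end was 0.118, which is a description, since isoforms share starts, ends and libraries. These differences between starts were not tested, since reads of a single pooled count are not replicates.

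**Figure D3:**
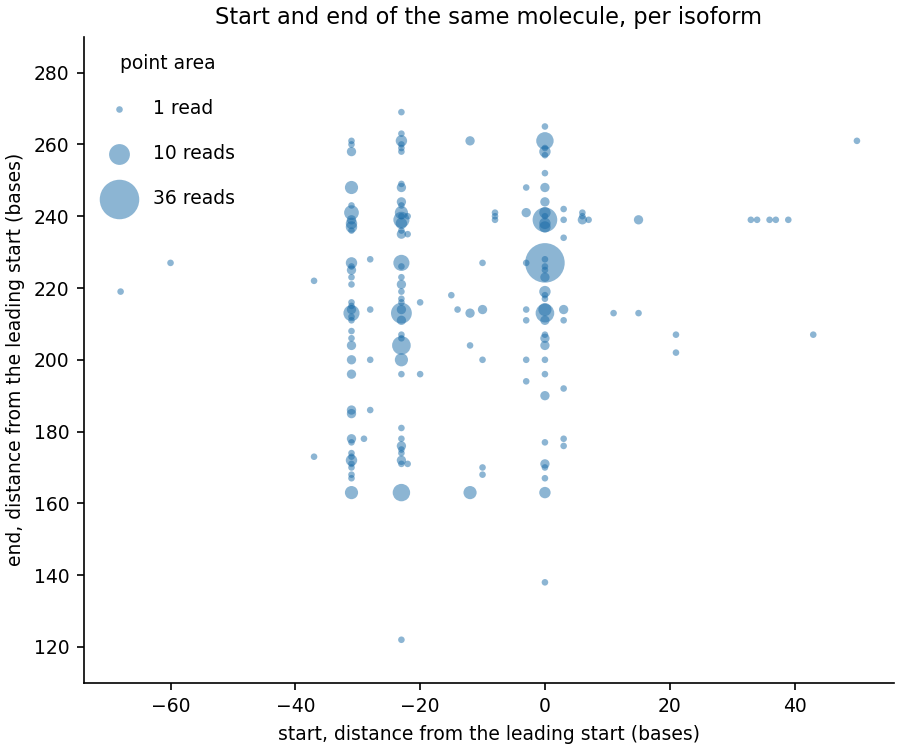
Each point is an isoform placed by its start and its end, both as distance in bases from the leading start, with point area in proportion to its reads. Columns at −31, −23 and 0 show the 3 leading starts, each paired with many ends, and the largest point is the isoform of 36 reads.

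**Figure D4:**
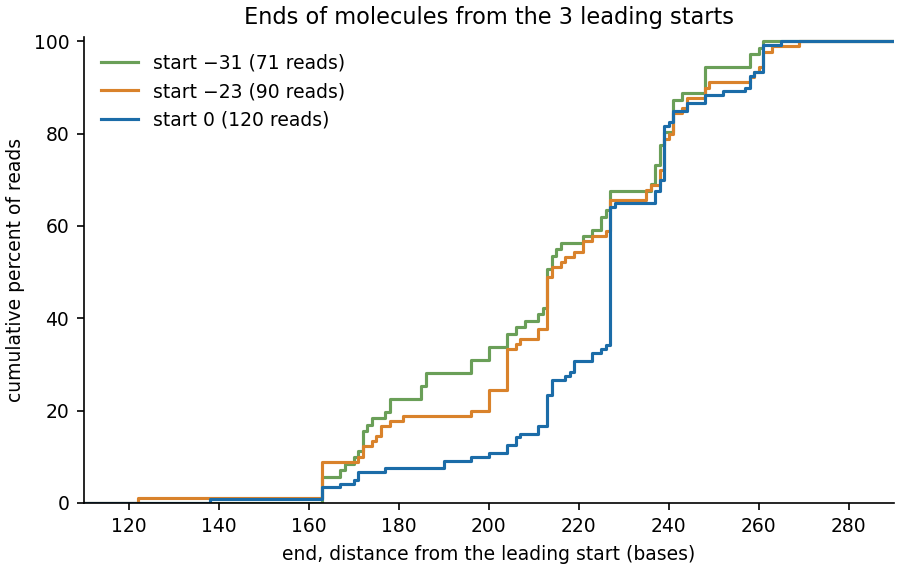
Cumulative percent of reads (vertical axis) against the end position in bases from the leading start, for the starts at −31, −23 and 0. The curves rise over the same range, and the leading start has a step at 227, which is the leading isoform.

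The first 200 bases of the RNA from the leading start held short words that the proteins Nrd1 and Nab3 are known to bind. These proteins end the transcription of noncoding RNA in yeast and hand it to the exosome. On the RNA strand there were 3 TCTT (at 88, 95 and 99), 1 GTAA (at 104) and 2 GTAG (at 112 and 119), none of which overlap each other. All 6 words began between 88 and 119, before the main end zone, which opened at 163. On the opposite strand there were 0 TCTT, 2 GTAA and 0 GTAG. At least 3 TCTT occurred in the first 200 bases of 41.0% of the 820 other unannotated clusters and 16.6% of all 4586, and at least 2 GTAG in 19.5% and 9.57%. At least 1 GTAA occurred in 67.9% and 57.4%. In the 60 bases before the leading end there was no TATATA, which 28.3% of 4937 end clusters elsewhere had.

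Set beside other start clusters of 200 to 600 reads, the spacer cluster had ends that spanned fewer bases than those of most unannotated clusters and used more positions than those of most ORF clusters. Its 98 bases for the central 90% of ends compare with a median of 266 (quartiles 201 and 407) in 25 unannotated clusters, 22 of which were wider, and with 61 (28 to 123) in 454 ORF clusters. Its 65 distinct ends compare with 80 (57 to 115) and with 31 (23.3 to 39). Its median length of 232 bases was shorter than that of 23 of the 25 unannotated clusters, whose median was 313. Ends further into the copied part of NTS1 could be missed. The share of this in the span, the number of ends and the length was not tested. Perplexity, the number of equally used isoforms that would give the same diversity, was 103. Medians were 52.7 in unannotated, 44.4 in noncoding gene and 36.2 in ORF clusters, and 7 of the 25 unannotated clusters were above 103. The share of reads followed by A, 32.0%, was below that of 21 of 25 unannotated, 15 of 17 noncoding gene and 438 of 454 ORF clusters. Its A-rich share of 20.8% compares with a median of 10.2% in the unannotated clusters, 6 of which were higher, and with a maximum of 19.5% in the 17 noncoding gene clusters. Over the window this share was 11.8% without the leading isoform, while the other clusters kept theirs. None of these values stood outside the range of the unannotated clusters.

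**Figure D5:**
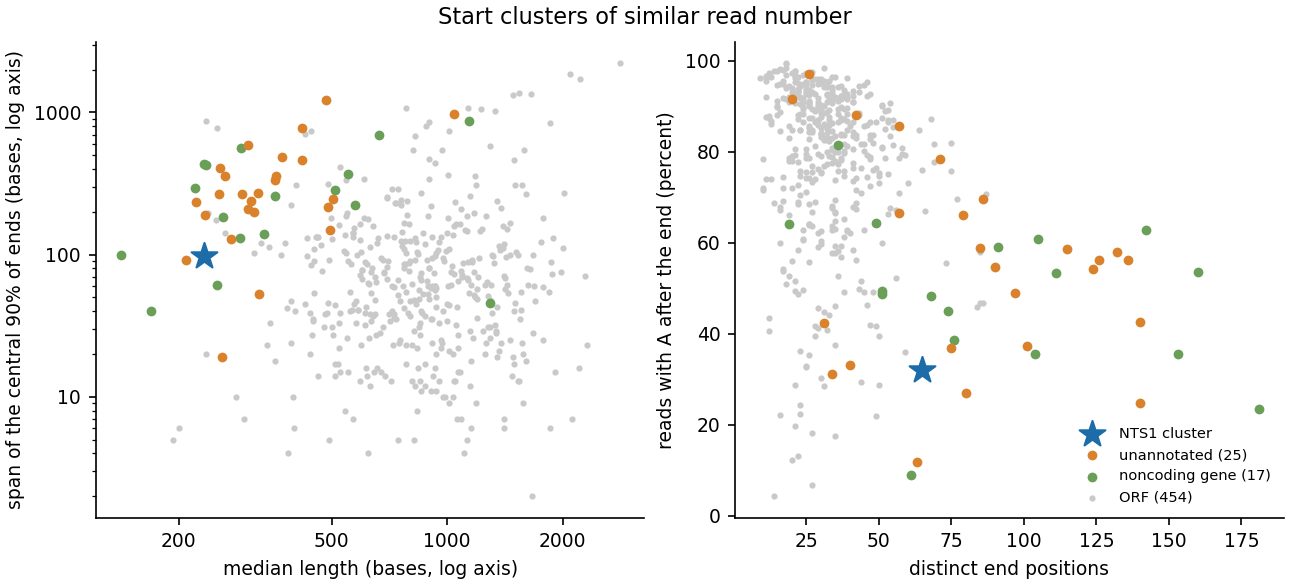
Start clusters of 200 to 600 reads by class, with median length against the span of the central 90% of ends (left, both log axes, bases) and distinct end positions against the percent of reads with A after the end (right). The NTS1 cluster, a star, lies at 232 bases and 98 bases on the left, and at 65 ends and 32.0% on the right.

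Genes that act on the ribosomal DNA or on its RNA were read from isoforms that cover the whole ORF. Of a list of 30, 27 had at least 1 read, and the median of all 30 was 4.64 CPM. The highest were SPT15, the TATA-binding protein, at 321 CPM (295 to 348), LRP1, the partner of Rrp6, at 252 CPM (230 to 277) and MPP6, an exosome cofactor, at 169 CPM (150 to 188). NET1 of the nucleolar silencing complex, the polymerase I factor gene RRN6 and the large polymerase I subunit gene RPA190 had 0 reads. These 3 ORFs have 2685 bases or more, and the longest ORF of the list with any read has 3612. Long molecules were recorded rarely, with a 95th percentile of 1507 bases over all reads outside the window, so low counts of long genes do not show low levels.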

How the data were processed

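The values are whole-number read counts per pair of start and end position, deposited by the authors as 1 column that pools 4 libraries. The depth of each library is not known. Build R64, Novoalign 2.07.10 and CASAVA are named per the submitters' processing notes. The settings, and the treatment of reads matching several places or of PCR copies, were not given in the sources used here. Positions were taken as deposited and compared with the R64 sequence and annotation. Shares carry Wilson and levels exact Poisson 95% intervals, which cover counting error only. Word counts in the genome used both strands and all chromosomes. Start clusters were merged within 10 bases. Classes followed ORFs (start to stop codon), then annotated noncoding genes, of the same strand. The range of 200 to 600 reads for compared clusters was chosen after the cluster's reads were seen. Of clusters and isoforms, at most the 10 with most reads were named, and of the 30 genes the 3 highest and those at 0. The members and lists were chosen with earlier results of these data known. Placement, merging and the A-rich call were tested on simulated data. Python 3.11.15, pandas 2.3.3, SciPy 1.17.1 and Biopython 1.88 were used.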

Additional observations from a re-analysis of the deposited data

How the results depend on the processing

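Since every member lies in NTS1, no setting that drops or reweights members could move the shares of starts and ends there, and the same holds for the 0 matches at the other copy. Of 35 other values recomputed, 19 stayed within the counting interval of the share (for read counts, within 1.5 times; for lengths, within the quartiles). The window held 113 reads at 5 or more reads per isoform and 179 when each isoform counted once. A minimum of reads per isoform favours starts chosen for their reads and drops the minus-strand molecule of 1 read. The start and strand shares at such minimums therefore follow largely from the filter. The 3 leading starts held 91.7%, 100% and 63.7% at 2 or more reads, 5 or more reads and with isoforms counted once, and the plus strand 100% at both minimums. The A-rich share was 25.3%, 41.6% and 11.7% in the same order, 11.8% without the leading isoform (added after the data were seen), 0.560% with at least 7 A in 10 bases and 1.12% with 6 A directly after the end. Merging within 20 bases put 97.5% of reads in the leading start cluster, and merging within 5 bases put 63.3% in the leading end cluster. Among 105 unannotated clusters of 100 to 1000 reads, also added later, 88.6% had a lower perplexity, against 72% of the 25 compared. No paired analysis was possible because the file holds 1 pooled column, and leaving out libraries was not run for the same reason. Minus-strand and far-upstream RNA rest on 1 and 6 reads.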
